A study of Arabidopsis thaliana with 9 samples.

Results

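The Arabidopsis thaliana mutants shl-2 and ebs, which lack related chromatin proteins, were compared directly with each other. The comparison sets the 3 arrays of shl-2 seedlings against the 3 arrays of ebs seedlings, 6 of the 9 arrays of the series, and the other 3 arrays hold wild type seedlings, which serve below to place each difference. All plants were of the accession Landsberg erecta, the background that the mutants share with the wild type. They grew for 18 days on solid MS medium, with 16 h of darkness and 8 h of light a day and no further treatment, and RNA came from complete plants. The series describes the transcript of EBS as null in ebs and that of SHL as null in shl-2. The sample titles and genotype labels name the second mutant shl-2, while its descriptions spell it shl-2-2. Each array carries 1 independent biological pool of plants, and the number of plants in a pool is not given in the sources used here. In whole seedlings, a change in the share of a tissue and a change of RNA per cell cannot be told apart.

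EBS and SHL each combine a BAH domain with a PHD finger, modules that bind methylated tails of histone H3, and are therefore described as readers of histone marks. Both are known as repressors of flowering in Arabidopsis, and loss of either makes plants flower early. EBS is known for holding back the floral integrator FT, and SHL for holding back SOC1.

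Signals are log2 values per probe set made by RMA, the robust multi-array average, so a difference of 1 is a 2-fold change. Differences are given as shl-2 minus ebs unless stated otherwise. They were tested with limma, a linear model that borrows information on the spread across probe sets, and the word called marks a Benjamini-Hochberg adjusted p under 0.05 over all 22746 probe sets tested. Median signals of the arrays lay between 6.06 and 6.12. Arrays of ebs correlated with arrays of shl-2 at r = 0.991 to 0.995 across probe sets, and arrays of 1 genotype with each other at r = 0.992 to 0.997, where probe sets are not independent replicates. Photosynthesis genes, which mark leaf tissue, had a mean log2 signal of 13.25 to 13.5 over the 6 measured members on every array. Of 26 root markers 2 were measured, the root hair expansins EXPA7 and EXPA18, with mean signals of 4.69 to 5.18. The 5 measured pollen and flower markers had mean signals of 3.71 to 3.96, beside a lower quartile of 3.85 over all probe sets, and UFO, the only measured gene of the floral organ list, read 3.51 to 3.86.

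The first principal component, with 32.2% of the variance, did not separate the mutants: ebs arrays scored -0.667 to 15.8 and shl-2 arrays 7.43 to 17.7. The second component, with 22.6%, spread the arrays within each mutant, from -22.8 to 16.5 in ebs and from -19.8 to 8.06 in shl-2. The third component, with 16.7%, held the difference between the mutants. On it the ebs arrays scored 13.4 to 16.9, the wild type arrays -4.98 to 3.02 and the shl-2 arrays -16.4 to -7.03, so that the mutants lay on opposite sides of the wild type without overlap.

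**Figure D1:**
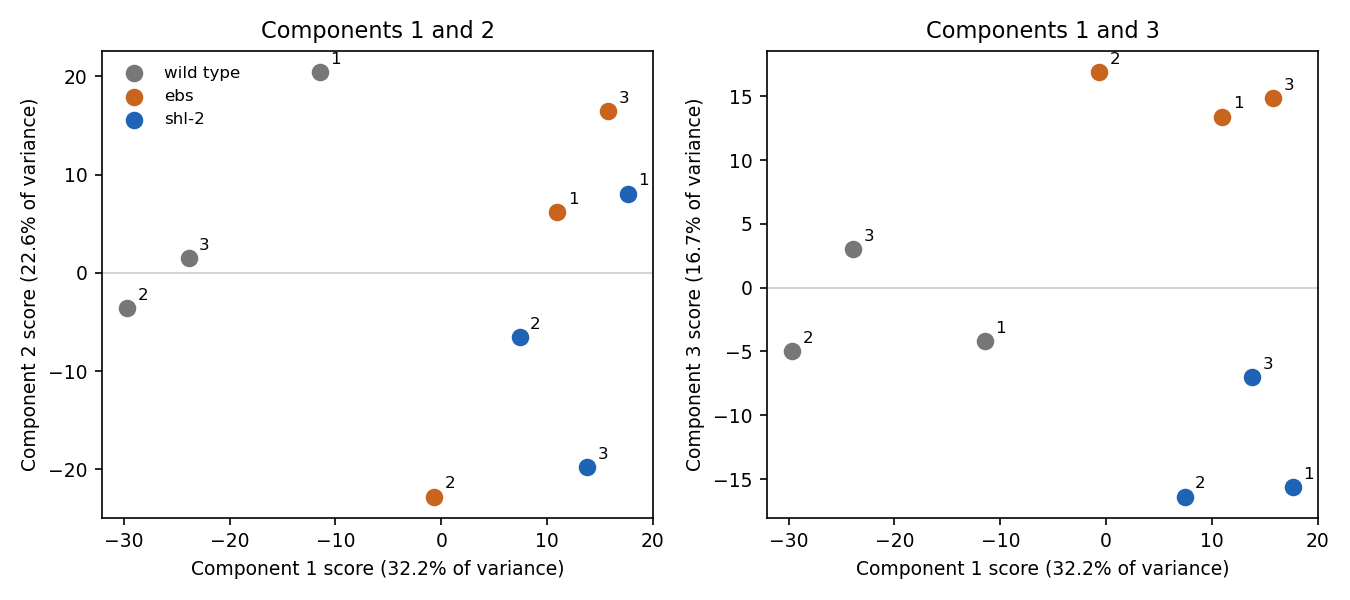
Scores of the 9 arrays on principal components 1 and 2 (left) and 1 and 3 (right), in units of the log2 signal, with array numbers beside the points. Component 3 puts the 3 ebs arrays at 13.4 to 16.9 and the 3 shl-2 arrays at -16.4 to -7.03.

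The targeted gene SHL, annotated as SHL1, was examined first because it checks the labels. Its signals were 8.08, 7.82 and 7.81 on the ebs arrays and 7.46, 6.91 and 6.52 on the shl-2 arrays, beside 7.88, 8.02 and 7.88 in wild type. All 3 shl-2 arrays lay below all ebs arrays, and array 1 of shl-2 was the highest of its group. The difference was -0.94 (SE 0.19, n = 3 per group, limma adjusted p = 0.0656), so the gene was not called. It was called without shl-2 array 1 (adjusted p = 0.00913) and with array weights (0.024), but not without any other single array (up to 0.238). Against wild type the difference was -0.96 in shl-2 (limma adjusted p = 0.0182) and -0.02 in ebs (0.973). Signal remained well above the lower quartile of 3.85 in shl-2, and the position of the probe set in the mutated gene was not examined. EBS was not analysed here.

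Between the mutants 175 of 22746 probe sets were called, 0.769%, with 114 lower in shl-2 (0.501%) and 61 higher (0.268%). Arrays of shl-2 and ebs were fully separated in each of the 175, and in 14.0% of all probe sets tested. The count depended on the arrays: it was 64 without ebs array 1, 84 without shl-2 array 1, 98 without ebs array 3 and 104 without shl-2 array 2. It was 364 (149 higher and 215 lower) with array weights and 112 (35 higher and 77 lower) in a fit of the 6 mutant arrays alone. In that last fit 13 of the genes described below were not called, with adjusted p from 0.0514 to 0.125: AGL24, YAB5, 2A6, BRH1, AT1G03820, AT1G31690, AT1G61100, AT1G64500, AT2G26630, AT2G47440, AT3G18280, AT3G27400 and AT5G42760. Among the called probe sets 45 differed at least 2-fold (0.198%), and 40 of these were lower in shl-2 (0.176%) and 5 higher (0.022%). Named genes numbered 84 among the calls, which is 0.629% of the 13356 genes with a named probe set, with 58 lower (0.434%) and 26 higher (0.195%) in shl-2. An unadjusted p under 0.05 was found for 10.7% of all probe sets, against which the counts at that level below are to be read. The median difference over all probe sets was -0.0033, and the 5th and 95th percentiles were -0.29 and 0.24.

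Each called probe set was placed by which mutant mean lay farther from the wild type mean. This was done also where the distances were nearly equal, as for AT3G47540 (0.4 in ebs and -0.42 in shl-2). For 67 of the 114 probe sets lower in shl-2 the ebs mean lay farther from the wild type mean than the shl-2 mean did, and their median log2 difference from wild type was 1.01 in ebs. For the other 47 the shl-2 mean lay farther, with a median of -0.72 in shl-2 against wild type. Among the 61 higher in shl-2, the shl-2 mean was the farther one for 45 (median 0.73 against wild type) and the ebs mean for 16 (median -0.6 against wild type). The differences of the mutants from wild type share the wild type arrays, so these counts are a description. The next paragraphs take the 4 groups in turn.

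The largest differences among the called genes belonged to transcripts with high signals in ebs alone. Genes given by their locus number have no symbol in the annotation used. AT3G28500 read 7.66, 8.3 and 7.99 in ebs, 5.28, 5.08 and 5.26 in shl-2, and 4.86, 5.25 and 5.74 in wild type. The ebs arrays lay above every other array, while the shl-2 and wild type arrays overlapped. The difference between the mutants was -2.78 (SE 0.21, limma adjusted p = 0.000378). AT3G18330 showed the same order, with 5.98, 5.79 and 5.94 in ebs against 3.54, 2.95 and 2.9 in shl-2 and 3.19, 2.74 and 2.95 in wild type (difference -2.77, adjusted p = 6.53e-05). It was read by an s_at probe set, a type that can detect several similar transcripts. Below the lower quartile of 3.85 the size of a fold change depends on the background, which touches AT3G18330, AT1G65760, AT5G66970, AT1G03710 and AT1G65370 in shl-2.

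AT1G65760 read 5.71, 5.98 and 5.5 in ebs against 3.28, 3.24 and 3.45 in shl-2, and AT5G56910 read 7.68, 8.08 and 8.05 in ebs against 5.59, 5.45 and 5.7 in shl-2. In both cases the wild type means, 3.58 ± 0.17 and 5.43 ± 0.21 (SD, n = 3), lay with shl-2. The differences were -2.41 (SE 0.13) and -2.36 (SE 0.14), each with a limma adjusted p of 6.53e-05. AT5G66970 (difference -1.90), AT1G03710 (-1.64) and AT1G65370 (-1.62) repeated this with signals of 5.02 to 5.94 in ebs against 3.26 to 3.99 in shl-2. AT2G07140 (-1.48, read by an x_at probe set) and AT2G37130 (-1.33) had higher signals in every genotype, at 7.35 to 7.73 in shl-2 and 8.63 to 9.3 in ebs. AT4G29700 (-1.25) read 5.06 to 5.46 in ebs against 3.82 to 4.12 in shl-2. AT3G28500, AT3G18330 and the 8 genes of this paragraph were called whichever array was left out.

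AT1G31690 read 8.84, 9.48 and 8.48 in ebs, 5.83, 6.22 and 7.4 in shl-2, and 5.99, 6.71 and 7.06 in wild type. The spread within each genotype was wide, yet no ebs array overlapped with the other 6 arrays. The difference was -2.45 (SE 0.41, limma adjusted p = 0.0264), and leaving out any single ebs array, array 1 or 2 of shl-2 or wild type array 2 ended the call (adjusted p up to 0.113). A second probe set of the gene gave -1.67 (SE 0.18, adjusted p = 0.00293). The next measured gene along chromosome 1, AT1G31710, was chosen after its values were seen. It read 8.92, 8.82 and 8.7 in ebs against 8.1, 8.13 and 7.99 in shl-2 (difference -0.74, SE 0.08, adjusted p = 0.00293), but its second probe set gave -0.32 (adjusted p = 0.176). That second probe set read near the lower quartile of 3.85, with means of 4.21 in ebs and 3.89 in shl-2. AT3G27400 read 6.47, 7.03 and 6.04 in ebs against 4.96, 5.21 and 5.55 in shl-2 (difference -1.27, SE 0.23, adjusted p = 0.0417). Leaving out array 1 or 2 of either mutant or any wild type array ended its call (adjusted p up to 0.147).

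**Figure D2:**
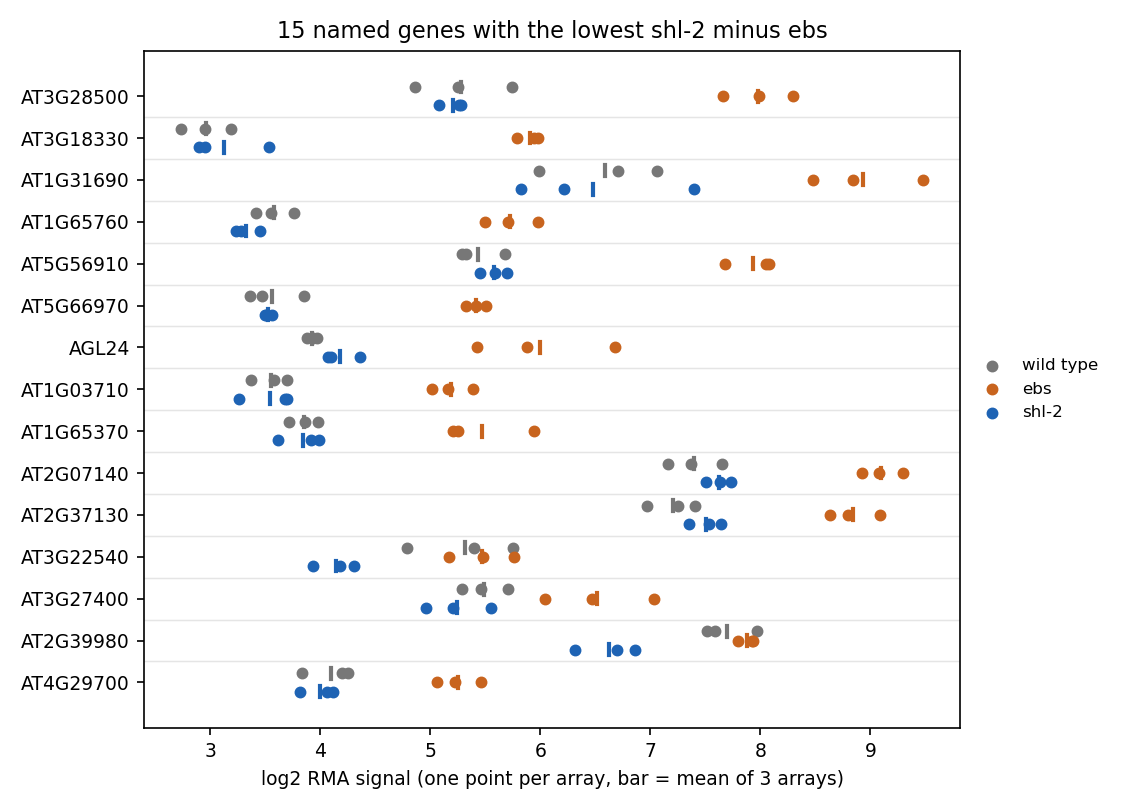
Log2 RMA signals of the 15 named genes with the lowest log2 fold changes (shl-2 minus ebs), 1 point per array and a bar at the mean of 3 arrays per genotype. In 13 of the 15 the ebs arrays stand apart from wild type and shl-2, whereas for AT3G22540 and AT2G39980 the shl-2 arrays are the ones that stand apart.

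In a second group lower in shl-2, the shl-2 signals lay away from wild type. AT2G39980 read 6.86, 6.32 and 6.7 in shl-2, 7.92, 7.8 and 7.93 in ebs, and 7.97, 7.52 and 7.59 in wild type. The shl-2 arrays lay below all 6 others, and the difference from ebs was -1.26 (SE 0.15, limma adjusted p = 0.00455), which held whichever array was left out. AT3G22540 read 3.94, 4.31 and 4.18 in shl-2 and 5.17, 5.76 and 5.48 in ebs (difference -1.33, SE 0.23, adjusted p = 0.0288). It lost its call without any ebs or shl-2 array or wild type array 3 (highest 0.116).

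The following genes of this second group were chosen after their values were seen. ORA47, an AP2/ERF transcription factor that activates jasmonate synthesis genes, read 5.44, 5.39 and 5.85 in shl-2, 6.61, 6.89 and 6.79 in ebs, and 6.54, 6.19 and 6.77 in wild type. Signals in ebs and wild type overlapped, and all shl-2 arrays lay below them (difference -1.20, SE 0.16, limma adjusted p = 0.01, but 0.0503 without shl-2 array 1). AT5G54130 (-0.80, adjusted p = 0.0031) and AT2G21185 (-0.62, adjusted p = 0.00659) also lay below all ebs and wild type arrays in shl-2, with shl-2 signals of 5.89 to 6.09 against 6.64 to 6.94 in ebs for the former and 8.41 to 8.56 against 9.0 to 9.19 for the latter. In AT5G54130 the ebs arrays also lay below the wild type arrays. Both passed whichever array was left out. The second probe set of AT5G54130 gave -0.54 (adjusted p = 0.0302), and was no longer called without any single mutant array or wild type array 3 (up to 0.144). AT2G27900 gave -0.67 (adjusted p = 0.00455), but its other 2 probe sets gave 0.13 and -0.02. The last of them read below the lower quartile of 3.85, with means of 3.29 in ebs and 3.28 in shl-2.

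Several transcripts lay between wild type and shl-2 in ebs. CYP78A9, a cytochrome P450 known for promoting fruit and seed growth, read 5.27, 5.55 and 5.25 in shl-2, 5.97, 6.17 and 6.23 in ebs, and 6.65, 6.7 and 6.58 in wild type. The 3 genotypes did not overlap, and shl-2 was lower than ebs by -0.77 (SE 0.10, limma adjusted p = 0.00896), whichever array was left out. The log2 fold changes against wild type were -0.52 in ebs and -1.29 in shl-2. AT2G19650 read 5.28, 5.34 and 5.42 in shl-2, 6.12, 6.1 and 6.12 in ebs and 6.69 to 7.25 in wild type (difference between mutants -0.77, SE 0.12, adjusted p = 0.0206). AT1G64500 (-0.74, adjusted p = 0.0345), AT5G42760 (-0.71, adjusted p = 0.0293) and AT4G39780 (-0.55, adjusted p = 0.0351) had the same order of genotypes. These last 4 genes were chosen after their values were seen, and each lost its call in several of the 9 fits that left out an array, with highest adjusted p of 0.101, 0.128, 0.143 and 0.143. In AT2G19650 the arrays concerned were any ebs array and shl-2 arrays 1 and 2. In AT1G64500 they were ebs arrays 1 and 3, shl-2 arrays 1 and 3 and every wild type array. In AT5G42760 they were every ebs array, shl-2 arrays 1 and 3 and wild type array 3, and in AT4G39780 every mutant array and wild type array 3.

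Other genes, also chosen after their values were seen, were displaced to opposite sides of wild type. AT1G01390 read 6.65, 6.74 and 6.46 in ebs, 5.79, 5.94 and 6.1 in wild type, and 5.51, 5.51 and 5.49 in shl-2 (difference between mutants -1.11, SE 0.10, limma adjusted p = 0.000784). AT3G47540 read 7.38, 7.36 and 7.32 in ebs, 6.99, 6.95 and 6.93 in wild type, and 6.65, 6.46 and 6.5 in shl-2 (difference -0.82, SE 0.07, adjusted p = 0.000784). In both genes the 3 genotypes formed 3 separate levels with wild type in the middle. Both calls held whichever array was left out.

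**Figure D3:**
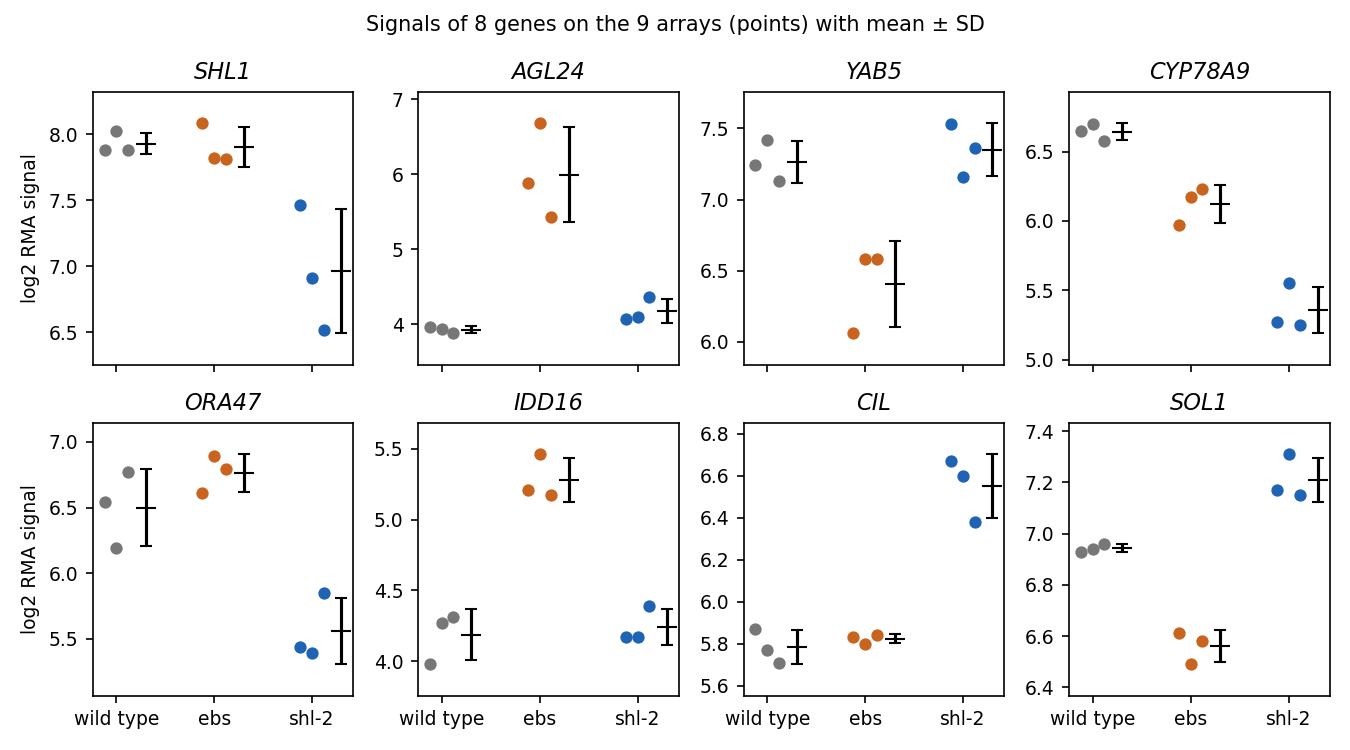
Log2 RMA signals of SHL1 and 7 genes with annotated symbols on the 9 arrays, points for arrays and a black bar with mean ± SD beside them (n = 3 per genotype). Scales differ between panels and do not start at 0. AGL24 and IDD16 are high in ebs, CYP78A9 and ORA47 are low in shl-2, YAB5 is low in ebs, CIL is high in shl-2, and SOL1 lies on opposite sides of wild type in the mutants.

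Of the probe sets higher in shl-2 than in ebs, 5 of 61 differed at least 2-fold. The highest difference of a named gene belonged to AT1G42705, which read 7.18, 7.39 and 6.79 in shl-2, 4.96, 5.33 and 4.89 in ebs, and 5.15, 5.56 and 5.48 in wild type. The shl-2 arrays lay above all others (difference 2.06, SE 0.17, limma adjusted p = 0.000661) in an s_at probe set. AT3G27473 read 4.22, 5.11 and 4.61 in shl-2, 3.28, 3.16 and 3.19 in ebs and 3.2, 3.21 and 3.27 in wild type (difference 1.44, SE 0.18, adjusted p = 0.00521). AT3G30200 read 4.47, 4.51 and 4.25 in shl-2 and 3.44, 3.47 and 3.36 in ebs (difference 0.99, SE 0.09, adjusted p = 0.000899). The ebs signals of the last 2 genes lay below the lower quartile of 3.85, and all 3 calls held whichever array was left out.

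CIL, which encodes a CCT-domain relative of a factor for chloroplast protein import, read 6.67, 6.6 and 6.38 in shl-2, 5.83, 5.8 and 5.84 in ebs, and 5.87, 5.77 and 5.71 in wild type. Levels in ebs and wild type overlapped, and shl-2 lay above both (difference 0.73, SE 0.09, limma adjusted p = 0.00455, kept whichever array was left out). 2A6, annotated by symbol only, read 7.94, 7.91 and 7.93 in shl-2 and 7.22, 7.55 and 7.22 in ebs (difference 0.60, SE 0.09, adjusted p = 0.019). Its second probe set gave 0.07. AT4G39420 read 8.28, 8.33 and 8.32 in shl-2 and 7.47, 7.59 and 7.42 in ebs (difference 0.82, SE 0.09, adjusted p = 0.00246). The other 3 probe sets of that gene gave 0.07, -0.03 and 0.13. Their shl-2 means of 3.59, 4.2 and 3.78 lay near the lower quartile of 3.85, where the background can hide a change. AT1G36940 (difference 0.88, adjusted p = 0.0148) and AT3G13980 (0.67, adjusted p = 0.0121) had shl-2 signals of 6.17 to 6.24 and 7.48 to 7.55 against 5.18 to 5.44 and 6.68 to 6.96 in ebs.

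A pair of genes lay above wild type in ebs and higher still in shl-2. AT1G61100 read 8.88, 8.73 and 9.35 in shl-2, 8.11, 7.9 and 8.12 in ebs and 7.37, 7.29 and 7.38 in wild type (difference between mutants 0.94, SE 0.14, limma adjusted p = 0.0148). AT2G47440 read 10.4, 10.41 and 10.66 in shl-2, 9.83, 10.03 and 9.79 in ebs and 8.73, 8.37 and 8.61 in wild type (difference 0.61, SE 0.11, adjusted p = 0.0484). The genotypes did not overlap in either gene. AT1G36940 was no longer called when array 1 or 3 of ebs or 1 or 2 of shl-2 was left out (adjusted p up to 0.066), nor 2A6 without the same arrays (0.101), and AT3G13980 without ebs array 1 or shl-2 array 2 (0.0536). AT1G61100 lost it without any ebs array or shl-2 array 1 (0.0709), and AT2G47440 without any mutant array or wild type array 3 (0.191).

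In the fourth group, higher in shl-2, ebs lay low. YAB5, a YABBY transcription factor of the lower leaf side, read 6.06, 6.58 and 6.58 in ebs, 7.53, 7.16 and 7.36 in shl-2, and 7.24, 7.42 and 7.13 in wild type. Signals in shl-2 and wild type overlapped, and ebs lay below both (difference 0.94, SE 0.15, limma adjusted p = 0.0227). AT2G26630, which stands 3 measured genes from YAB5 on chromosome 2, read 4.28, 4.11 and 4.32 in ebs against 4.81, 5.22 and 4.79 in shl-2 (difference 0.70, SE 0.12, adjusted p = 0.0287). SOL1, a cysteine-rich DNA-binding protein related to TSO1, read 6.61, 6.49 and 6.58 in ebs, 6.93, 6.94 and 6.96 in wild type and 7.17, 7.31 and 7.15 in shl-2 (difference 0.65, SE 0.07, adjusted p = 0.003). Its 3 genotypes did not overlap, with wild type in the middle, and the call held whichever array was left out. AT5G61570 (difference 0.78, adjusted p = 0.0287) and AT3G57780 (0.66, adjusted p = 0.0131) read 5.48 to 5.73 and 4.61 to 4.77 in ebs against 6.33 to 6.51 and 5.24 to 5.48 in shl-2.

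Within this group YAB5 lost its call when ebs array 1 or array 1 or 3 of shl-2 was left out (limma adjusted p up to 0.0923) and AT3G57780 without ebs array 1 or shl-2 array 2 (0.0775). AT5G61570 lost it without any of the 6 mutant arrays (0.143), and AT2G26630 without any ebs array, wild type array 3 or array 1 or 2 of shl-2 (0.116).

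**Figure D4:**
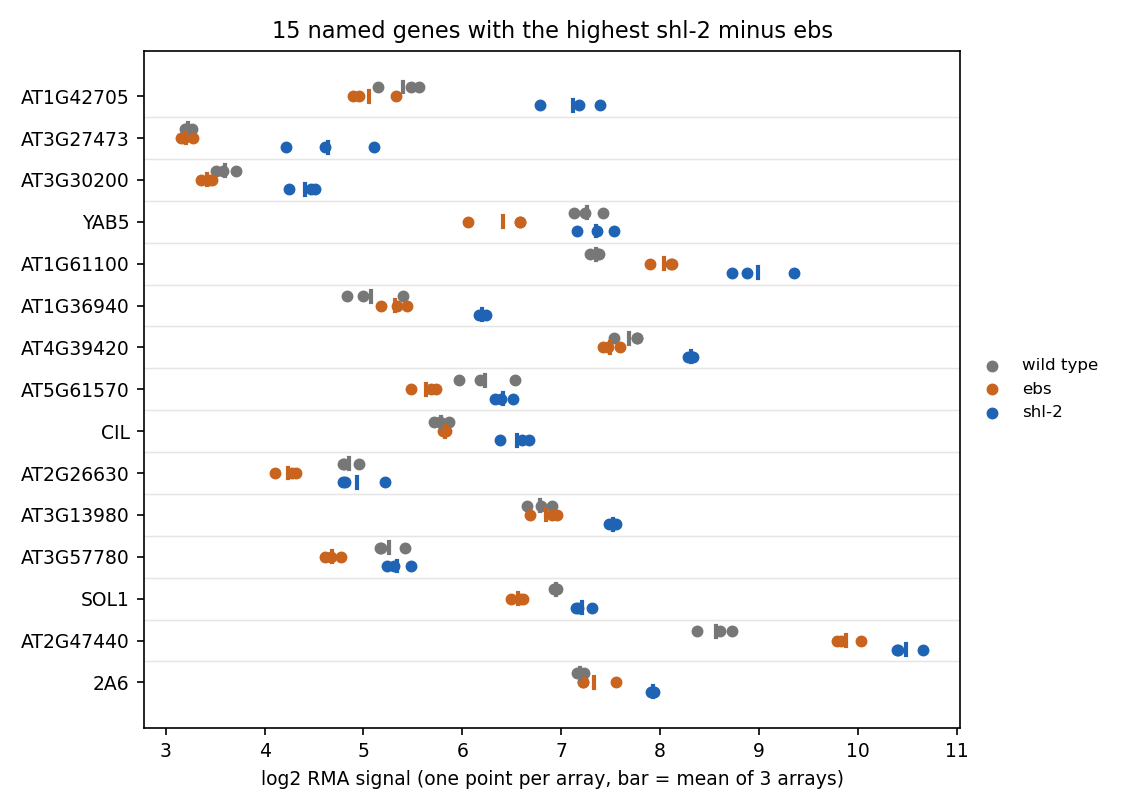
Log2 RMA signals of the 15 named genes with the highest log2 fold changes (shl-2 minus ebs), 1 point per array and a bar at the mean of 3 arrays per genotype. The shl-2 arrays stand apart for AT1G42705, AT3G27473 and CIL, whereas YAB5, AT2G26630 and AT3G57780 have low ebs arrays.

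Flowering genes come next, since both proteins are known to repress flowering. Of 24 floral promoter entries 7 were measured, and neither FT nor SOC1 was among these. Among the 7 measured floral promoters 1 was lower in shl-2 than in ebs, AGL24, and 6 were not called, beside 0.501% of all probe sets. AGL24, a MADS-box promoter of flowering, read 5.88, 6.68 and 5.43 in ebs, 4.07, 4.1 and 4.36 in shl-2, and 3.97, 3.94 and 3.88 in wild type. Every ebs array lay above every other array (difference -1.82, SE 0.25, limma adjusted p = 0.0101, but 0.0511 without shl-2 array 1 and 0.0575 in a fit of the mutant arrays alone). AGL19, another MADS-box promoter, read 3.18, 3.28 and 3.41 in ebs against 3.1, 2.99 and 2.91 in shl-2, all below the lower quartile of 3.85 (difference -0.29, adjusted p = 0.193). The clock-linked promoter GI gave -0.14, AGL72 -0.18, AGL71 -0.11, the bZIP partner of FT, FD, -0.07, and AGL42 0.04. The median of the list was -0.14.

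Of 25 floral repressor entries 4 were measured, of which 0 were called by limma and 2 had an unadjusted p under 0.05. SNZ, an AP2-type repressor, read 7.43, 7.75 and 7.44 in ebs against 7.18, 7.22 and 6.77 in shl-2 (difference -0.48, SE 0.14, adjusted p = 0.187). AGL18, a MADS-box repressor, read 5.82, 5.8 and 5.83 in ebs against 6.12, 6.08 and 5.99 in shl-2 (difference 0.25, SE 0.08, adjusted p = 0.285). The groups did not overlap in either gene, yet neither passed. SMZ and ATC, relatives of SNZ and TFL1, gave 0.13 and 0.04, and the list's median was 0.09. In the list of chromatin readers and histone-mark machinery 3 of 46 entries were measured and 0 called by limma, 1 of them with an unadjusted p under 0.05: SHL1, beside ICU2 at -0.08 and LDL2 at -0.01.

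Leaf and meristem genes were measured for 5 of 36 entries. YAB5 was called as higher in shl-2, beside 0.268% of all probe sets, and the other 4 were not called: the leaf polarity factor PHV read 7.02, 6.96 and 7.09 in ebs against 7.27, 7.26 and 7.55 in shl-2 (difference 0.34, SE 0.10, limma adjusted p = 0.189), YAB3 gave 0.09, CLV3 0.06 and JAG 0.0. The median of the list was 0.09. IDD16, a zinc finger factor of the INDETERMINATE DOMAIN family chosen after its values were seen, read 5.21, 5.46 and 5.17 in ebs, 4.17, 4.17 and 4.39 in shl-2 and 3.98, 4.27 and 4.31 in wild type. Its ebs arrays lay above all others (difference -1.04, SE 0.12, adjusted p = 0.0031, kept whichever array was left out). AT5G47390, with the synonym KUODA1, encodes a MYB-type factor of leaf cell expansion and was also chosen after its values were seen: it read 10.02, 10.1 and 10.06 in ebs against 9.51, 9.56 and 9.54 in shl-2 (difference -0.52, SE 0.07, adjusted p = 0.0121). Without array 1 or 3 of ebs or shl-2 array 1 it was not called (adjusted p up to 0.0551).

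Cell wall loosening genes held several sizeable differences that missed the threshold. Of 10 measured xyloglucan endotransglucosylase genes, whose enzymes cut and rejoin xyloglucan chains, 0 were called by limma and 4 had an unadjusted p under 0.05, all 4 with higher values in shl-2. XTH33 read 6.57, 6.74 and 7.87 in shl-2, 5.95, 5.2 and 5.75 in ebs and 4.86, 4.51 and 5.17 in wild type (difference 1.43, SE 0.32, adjusted p = 0.092). XTH16 read 8.1, 8.01 and 8.45 in shl-2 and 7.63, 7.28 and 7.58 in ebs (difference 0.69, SE 0.14, adjusted p = 0.0549). In both genes the mutants did not overlap, and shl-2 array 3 was the highest. XTH19 gave 0.68 (adjusted p = 0.169) and EXGT-A3 0.23 (adjusted p = 0.415), and the median of the 10 genes was 0.17.

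Of 18 measured expansin genes, whose proteins loosen the wall without cutting it, 0 were called by limma and 8 had an unadjusted p under 0.05. The members differed in direction. EXPA4 read 8.22, 8.77 and 8.1 in ebs against 7.39, 7.46 and 7.52 in shl-2 (difference -0.91, SE 0.19, adjusted p = 0.0667), and was called without wild type array 1 (adjusted p = 0.0427). EXPB3 read 8.36, 8.88 and 8.42 in ebs against 7.49, 7.84 and 7.85 in shl-2 (difference -0.83, SE 0.17, adjusted p = 0.0685). The expansin-like genes EXLA1 and EXLA2 lay the other way, at 0.81 (adjusted p = 0.147) and 0.60 (adjusted p = 0.169), with 9.62 to 10.37 in shl-2 against 8.82 to 9.39 in ebs for EXLA1. EXPA8 gave -0.56, EXPB1 -0.69 and EXPA15 -0.50, and the median of the family was -0.08. For EXO, a brassinosteroid-induced growth gene, signals were 11.04, 10.48 and 10.92 in ebs against 11.31, 11.02 and 11.68 in shl-2, which overlapped (difference 0.52, SE 0.18, adjusted p = 0.31).

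Genes of specialised metabolism and defence were mostly not called. Among the 26 measured of 241 genes with CYP symbols, CYP78A9 was lower in shl-2, beside 0.501% of all probe sets, and 25 were not called. The median of all 26 was -0.08. CYP71B36 read 5.6, 5.15 and 5.48 in ebs against 5.21, 4.9 and 4.19 in shl-2 (difference -0.64, limma adjusted p = 0.347), and CYP71B21 gave -0.39 (adjusted p = 0.368). That symbol-based list also holds CYP71 and CYP59, which are cyclophilins. Of 47 measured genes with UGT symbols, which mark glycosyltransferases, 0 were called and 6 had an unadjusted p under 0.05. Genes with only a locus number could not enter this list, so it need not cover the whole family. The lowest p belonged to UGT76E12 (difference -0.63, SE 0.16, adjusted p = 0.143) and UGT73C1 (-0.61, SE 0.18, adjusted p = 0.222). Of the 47 differences 34 were negative, with a median of -0.09, beside 51.0% negative among all probe sets. The list's means on single arrays overlapped between the mutants, at 5.89 to 5.99 in ebs and 5.74 to 5.93 in shl-2. Genes of a list are not independent replicates. Negative differences also prevailed among the genes with CYP symbols (20 of 26) and the expansins (12 of 18). Among xyloglucan endotransglucosylase genes 7 of 10 were positive. In the glucosinolate list, 0 of 4 measured genes were called by limma and 3 had an unadjusted p under 0.05: AOP1 read 8.26, 8.67 and 8.38 in shl-2 and 7.85, 8.0 and 7.94 in ebs (difference 0.51, SE 0.10, adjusted p = 0.0592), while the chain elongation gene BCAT4 gave -0.44 (adjusted p = 0.104) and the side chain gene AOP3 -0.54 (adjusted p = 0.194).

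The 6 measured flavonoid and anthocyanin genes gave 0 calls in limma and 1 unadjusted p under 0.05, with a median of -0.07. UGT78D2 read 7.98, 7.84 and 7.77 in ebs against 7.54, 7.68 and 7.39 in shl-2 (difference -0.33, adjusted p = 0.416), and UGT78D1 gave -0.21 (adjusted p = 0.745). The defence genes varied within genotypes. THI2.1, a thionin gene, read 3.98, 3.62 and 7.08 in ebs, 3.71, 3.66 and 3.6 in shl-2 and 6.68, 3.42 and 3.88 in wild type (difference between mutants -1.24, SE 0.95, limma adjusted p = 0.714). Thus ebs array 3 and wild type array 1 were high and all other arrays low. The defensin gene PDF1.2b read 9.81, 6.56 and 10.26 in ebs against 9.21, 9.07 and 6.93 in shl-2 (difference -0.47, SE 1.00, adjusted p = 0.92), again with 1 array of each mutant far below the others. Its probe set is of the x_at type, which can detect several transcripts. PDF1.2 gave -0.05. Of 27 defence entries these 3 were measured, and 0 were called and 0 had an unadjusted p under 0.05. WRKY53 read 5.49, 4.75 and 5.67 in ebs against 4.84, 3.86 and 4.31 in shl-2 (difference -0.97, SE 0.34, adjusted p = 0.316), and WRKY6 gave -0.34 (adjusted p = 0.623). Of 67 WRKY entries 6 were measured, of which 0 were called and 1 had an unadjusted p under 0.05.

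Hormone lists gave no call, but few entries were measured: 6 of 24 for early auxin response and 4 of 30 for brassinosteroid and gibberellin. Of 6 early auxin response genes 0 were called by limma and 1 had an unadjusted p under 0.05: WES1, an auxin-conjugating enzyme, read 7.91, 7.79 and 8.19 in ebs against 7.65, 7.51 and 7.4 in shl-2 (difference -0.44, SE 0.14, adjusted p = 0.27). The other 5 lay between -0.28 for IAA29 and 0.14 for HAT2. Besides EXO, the brassinosteroid and gibberellin list held the gibberellin receptors GID1A (0.19), GID1C (-0.12) and GID1B (-0.19), with 0 of 4 called and 1 at an unadjusted p under 0.05. Chosen after its values were seen, the brassinosteroid-responsive RING-H2 gene BRH1 read 10.08, 10.11 and 9.8 in shl-2 and 9.48, 9.45 and 9.48 in ebs (difference 0.53, SE 0.10, adjusted p = 0.0449). It was no longer called without any ebs array, array 1 or 2 of shl-2 or array 2 or 3 of wild type (adjusted p up to 0.157).

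Transcripts of the photosynthetic apparatus did not pass in either direction. Over the 6 measured nuclear genes of the photosynthesis list the differences ran from -0.06 for PORB to 0.11 for LHCB4.2 (limma adjusted p = 0.703), with 0 called and 0 at an unadjusted p under 0.05. LHCB4.1 gave 0.04. Of 69 plastid-encoded genes 0 were called and 7 had an unadjusted p under 0.05, with a median of 0.0 and as many positive as negative values (34 each). The photosystem II gene psbD read 9.99, 10.03 and 9.99 in ebs against 9.73, 9.81 and 9.44 in shl-2 (difference -0.34, SE 0.11, adjusted p = 0.23), and ndhD gave -0.31 (adjusted p = 0.243). The plastid mean lay at 10.11 to 10.21 in ebs against 10.01 to 10.23 in shl-2. The list of ribosomal proteins held only plastid-encoded members, 15 in number, of which 0 were called and 2 had an unadjusted p under 0.05 (rps16 at 0.38, adjusted p = 0.411, and rps15 at -0.22, adjusted p = 0.42). It therefore does not cover ribosomal proteins encoded in the nucleus.

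The remaining lists gave no call in limma. Cold, drought and abscisic acid genes (4 measured) ran from -0.19 for LTI30 to 0.18 for COR47 (adjusted p = 0.518), with COR15A at 0.17 (adjusted p = 0.698), and reference genes (3 measured) from -0.04 for TUB6 to 0.04 for PEX4. The pollen and flower markers ran from -0.15 for MGH3 to 0.03, AGL66 among them at -0.07, and UFO gave -0.08. For both root markers, EXPA18 and EXPA7, the difference was -0.19, and EXPA18 had an unadjusted p under 0.05 (adjusted p = 0.427). Lists with a single measured member were light and shade (HYH, -0.38), the clock (TIC, -0.12), heat shock (Fes1A, -0.07) and sugar starvation and senescence (SAG29, -0.30). Among these remaining genes, EXPA18 was the 1 with an unadjusted p under 0.05. Seed maturation genes were not analysed here, with 0 measured. Over all 28 lists, 3 of 269 different measured genes were called, beside 0.629% of all named genes, and 1 was called in a fit of the mutant arrays alone.

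**Figure D5:**
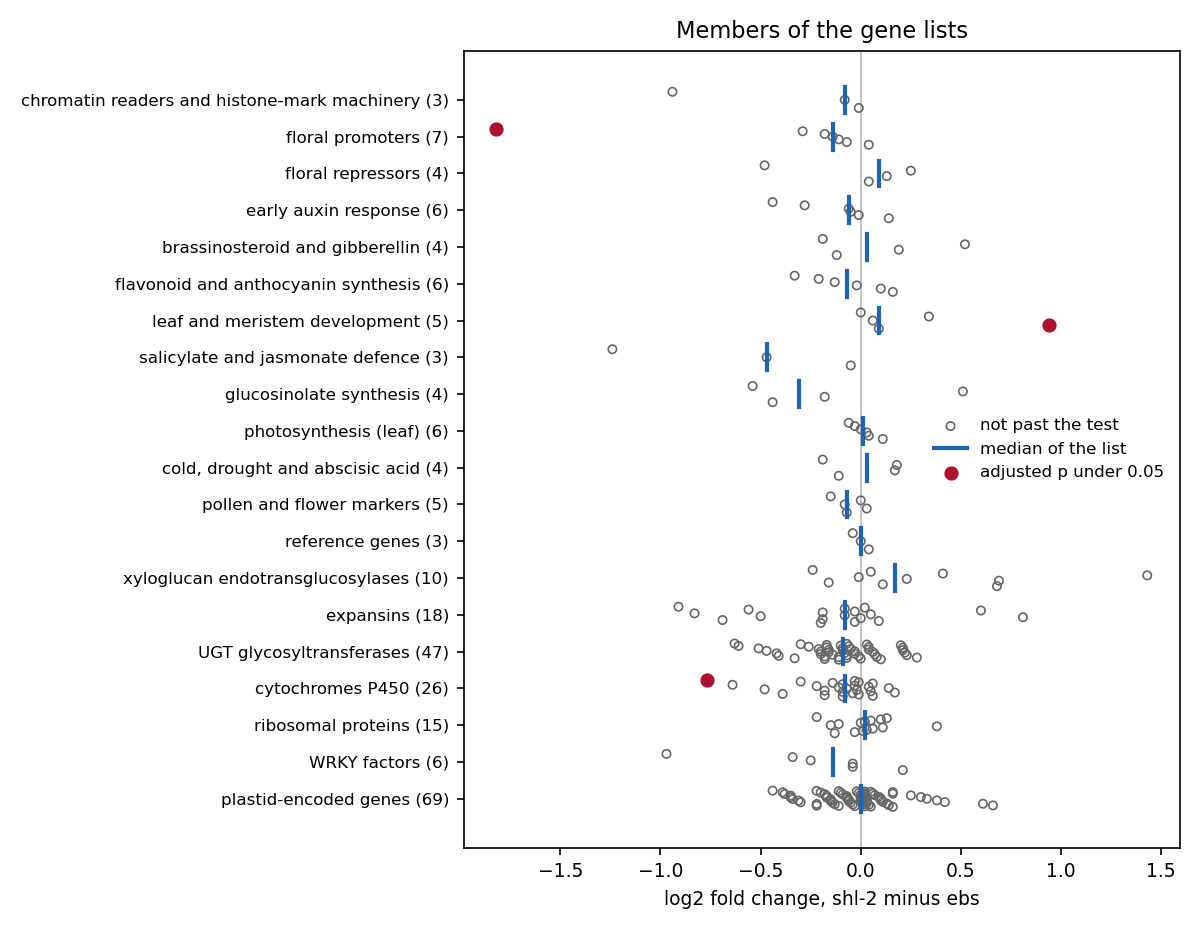
Log2 fold changes (shl-2 minus ebs) of the members of gene lists described in the text that have at least 3 measured genes, whose number stands in brackets, with open points for genes not past the test, filled points for called genes and a bar at the median of each list. AGL24, YAB5 and CYP78A9 are the called members.

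Called genes were spread over the nuclear chromosomes. The share of measured genes called was 0.792% on chromosome 1 (27 genes), 0.738% on chromosome 2 (16), 0.662% on chromosome 3 (18), 0.62% on chromosome 4 (12), which carries both EBS and SHL1, and 0.335% on chromosome 5 (10). Of the 69 plastid genes 0 were called. Within 5 measured genes of each other lay 7 pairs of called genes, and 4 of these pairs had differences of the same sign. Besides AT1G31690 with AT1G31710 and YAB5 with AT2G26630, these were AT1G03710 with AT1G03820 (-1.64 and -1.0) and AT3G18280 with AT3G18330 (-0.57 and -2.77). AT3G18280 was not called in any fit that left out 1 array (limma adjusted p 0.0576 to 0.134), nor AT1G03820 without array 1 or 2 of either mutant or wild type array 3 (up to 0.143). Pairs of opposite sign included AT3G27400 with AT3G27473 (-1.27 and 1.44). How many such pairs, and how many of like sign, would arise among genes placed at random was not computed. Of the 84 called named genes 58 were lower in shl-2 and 26 higher, which by itself makes like signs frequent.

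Signal levels of the called probe sets are given as a description. Of the 114 lower in shl-2, 12.3% had a shl-2 mean and 2.63% an ebs mean below the lower quartile of 3.85, against 25.4% and 24.9% of all probe sets tested. Of the 61 higher in shl-2, 6.56% had an ebs mean below it. Probe sets of the s_at and x_at types, which can detect several transcripts, made up 3.51% of those lower and 3.28% of those higher in shl-2, beside 4.66% of all.

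A further 89 called probe sets named no single gene, 54 lower and 35 higher in shl-2. The lowest difference among them belonged to a probe set that read 6.87, 7.24 and 6.65 in ebs, 4.67, 4.65 and 4.8 in shl-2 and 4.34, 4.34 and 4.8 in wild type (difference -2.21, SE 0.16, limma adjusted p = 0.000268). The highest belonged to one that read 5.89, 5.69 and 5.89 in ebs, 7.4, 7.32 and 7.24 in shl-2 and 7.73, 7.52 and 7.59 in wild type (difference 1.5, SE 0.09, adjusted p = 6.53e-05). In both, the ebs arrays stood apart from the other 6, and both calls held whichever array was left out.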

How the data were processed

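RNA of 9 pools was read on ATH1 arrays. The authors computed log2 signals by RMA (affy), per the submitters' processing notes, which name no version or filter in the sources used here. RMA corrects background, equalises the arrays' distributions and summarises probes, so shifts shared by most transcripts are removed. Scanner files were not used here. The table holds 22810 probe sets, and its 64 AFFX controls were dropped. Platform annotation, updated through Entrez identifiers to RefSeq names of TAIR10.1, gave 13513 probe sets 1 gene (13436 matched), 503 several and 8730 none here. The probe set with the highest mean stood for a gene.

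Genotype means were estimated from all 9 arrays with limma 3.58.1 in R 4.3.3 (lmFit, contrasts.fit, eBayes), and p-values were two-sided and adjusted by Benjamini-Hochberg over 22746 probe sets. The pipeline was tested on simulated data. Errors are moderated standard errors or SDs, and 3 arrays per genotype limit the precision. No array pair was identical (0 pairs).

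Named by rule were SHL1, the 15 highest and 15 lowest differences among called genes without overlap, and per list up to 6 called and 2 other members of smallest p. Members and lists were chosen with earlier results of these data known. A chitinase gene matched through the symbol CHI was removed from the flavonoid list after matching. Further members of a list were named after their values were seen. The result of 1 list is not reported here.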

Additional observations from a re-analysis of the deposited data

How the results depend on the processing

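The 175 calls between the mutants (61 higher and 114 lower in shl-2) depended most on the arrays used. Leaving out 1 array at a time gave 64 to 190 calls, 12 to 81 higher and 52 to 115 lower, with 64 without ebs array 1, 84 without shl-2 array 1, 98 without ebs array 3 and 104 without shl-2 array 2; without ebs array 2 the higher calls fell to 33. Of the 84 called named genes 32 passed in all 9 of these fits, and 0 changed sign. Array weights gave 364 calls (149 and 215), and a fit of the 6 mutant arrays alone 112 (35 higher), with 29 of the 84 genes no longer called. By construction fewer passed at an adjusted p under 0.01 (51, of which 11 and 40), with a 2-fold minimum (45, of which 5 and 40) and with 1 probe set per gene (84, of which 26 and 58). With a replicate block 248 were called (87 higher and 161 lower), and 10 list members instead of 3; the mutant arrays alone left 1 list member, and leaving out 1 array 2 to 4. Same-numbered ebs and shl-2 arrays deviated from their group means with r = 0.228, 0.156 and -0.285. Same-numbered arrays gave 0.271, 0.46 and -0.108 for wild type with ebs, and 0.405, 0.212 and 0.171 for wild type with shl-2. Differently numbered arrays of different genotypes ran from -0.544 to 0.459. Not every array correlated best with its own number. The labels name no block, so the numbers were not taken as pairs in the main fit. Whether same-numbered pools shared a batch was not tested. Centring, repeated quantile normalization, removal of dim probe sets, trended and robust variances kept the counts within 1.5 times. Of the genes above, AT1G31690 lost its call with robust variance and AT3G27400 with repeated quantile normalization. AT2G47440 lost it with centring, repeated quantile normalization and the block, and AT1G64500 and AT3G18280 with the block. Genes named by rule but not called passed in some fits. With array weights these were SHL1, AOP1, BCAT4, XTH16 and EXPA4. With trended or robust variance they were AOP1 and XTH16, and with the block SHL1, AOP1, XTH33, EXPA4, EXPB3 and WRKY53. Over the fits without 1 array 110 of the 269 measured list genes turned sign, 0 of them called, among them AGL42, ATC, CLV3, FD, GID1B, JAG, LDL2, PDF1.2 (-0.68 to 0.32), PORB and CYP71. Among the genes named by rule, ICU2 ran from -0.17 to 0.04 (without shl-2 array 1), PDF1.2b from -1.63 to 0.22 (without ebs array 3) and 0.26 (without shl-2 array 3), LHCB4.1 from -0.01 (without shl-2 array 3) to 0.12, Fes1A from -0.2 to 0.0 (without ebs array 1) and 0.05 (without shl-2 array 2), and PEX4 from -0.02 (without shl-2 array 1) to 0.07. The cause of these shifts was not tested. Signals near the background limit the size of the folds given for dim probe sets.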
